A study of Mus musculus with 6 samples.

Results

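The CXC chemokines described here are the 9 genes Cxcl12, Cxcl1, Cxcl2, Cxcl3, Cxcl10, Cxcl14, Cxcl16, Pf4 and Ppbp, taken by gene symbol from the 15824 genes of the deposited expression table, and all 9 were in it. RNA was sequenced after polyA selection from alveolar macrophages, the phagocytes of the airspace, isolated by flow cytometry from mice 8 weeks old. There were 3 libraries of WT mice and 3 of mice with a Men1 knockout (KO), and the sort is the treatment the labels name for all 6. Men1 encodes menin, a chromatin scaffold that binds MLL histone methyltransferases. The labels give neither the driver of the knockout, nor the deleted exons, nor whether libraries of a group came from separate animals, so the spread behind each p-value is that between these libraries and may be technical.

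CXC chemokines are small secreted proteins whose first conserved cysteines are separated by another residue, and they guide leukocytes through G protein-coupled receptors. Members with the ELR sequence before the cysteines, such as Cxcl1, Cxcl2, Cxcl3 and the processed form of Ppbp, attract neutrophils through Cxcr2. Pf4 and Ppbp are stored in platelet alpha granules, Cxcl10 is an interferon-induced ligand of Cxcr3, Cxcl12 is the Cxcr4 ligand made mainly by stromal and endothelial cells, and Cxcl16 is a membrane-bound ligand of Cxcr6. Cxcl14 is expressed in many epithelia.

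The counts of Men1 were 639, 594 and 603 in the WT group (libraries 1, 2 and 3 in that order, as below) and 150, 149 and 165 in the KO group, a log2 fold change of -1.93 (SE 0.0684). Library totals lay between 19955232 and 20151985 counts. Y-linked transcripts differed with the genotype: 4 of them had at least 283 counts in every WT library and at most 2 in any KO library, so genotype and presence of Y-linked transcripts cannot be told apart in any value below. Siglecf, the lectin that marks alveolar macrophages, stood at 2.06 ± 0.381 CPM (counts per 1e6 counts; SD, n = 3) in WT, against 1.34 ± 0.154 CPM (SD, n = 3) in KO. The general macrophage gene Csf1r, the receptor for the growth factor CSF1, was at 1432 ± 17.6 and 2738 ± 28.5 CPM (SD, n = 3 each). Of 23 alveolar macrophage markers 19 were in the table, and 4 of those had at most 3 counts in every library. The 13 tested were divided, with 6 higher, 6 lower and 1 not passing, a median log2 fold change of 0.08 and a summed level of 6148 to 6207 CPM in WT and 4674 to 4782 CPM in KO. Marco, a scavenger receptor gene, rose from 172 ± 2.17 to 1137 ± 22.8 CPM (SD, n = 3 each; log2 2.72), while Spp1, the osteopontin gene, and Atp6v0d2, a proton pump subunit gene, were 2.46-fold and 1.95-fold lower.

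The promoters of 8 of the 9 genes were found in the RefSeq table of build GRCm38.p6, and they fall into different kinds of sequence. The stretches below run from 150 bases before to 50 bases after the transcription start. Cxcl1, Cxcl3 and Cxcl2 lie on the plus strand of chromosome 5 and are shown because they share 2 blocks of letters although only Cxcl1 passed the test between the genotypes. Capitals mark the NF-kB-type sequence GGGAATTTCCC, the longest run that the 3 promoters share before the start, and the TATA-type sequence ATAAAAGG.
Cxcl1 (chr5:90891095-90891294): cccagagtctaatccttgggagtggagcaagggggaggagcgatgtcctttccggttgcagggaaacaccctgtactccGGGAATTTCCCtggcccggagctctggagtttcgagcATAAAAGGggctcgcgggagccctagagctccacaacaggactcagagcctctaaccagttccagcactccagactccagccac
Cxcl2 (chr5:90903749-90903948): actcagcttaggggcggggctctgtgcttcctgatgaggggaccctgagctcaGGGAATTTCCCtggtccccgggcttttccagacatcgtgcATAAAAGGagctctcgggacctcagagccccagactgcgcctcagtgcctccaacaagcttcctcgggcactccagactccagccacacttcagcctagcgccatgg
Cxcl3 (chr5:90785951-90786150): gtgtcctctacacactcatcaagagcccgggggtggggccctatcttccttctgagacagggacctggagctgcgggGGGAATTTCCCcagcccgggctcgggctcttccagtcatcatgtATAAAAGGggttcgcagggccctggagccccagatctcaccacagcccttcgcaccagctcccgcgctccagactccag

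GGGAATTTCCC was found on either strand in 14 of 32851 RefSeq promoters of 300 bases (0.0426%), and among the members in these 3 only. Its presence in these 3 was fixed in advance, because the letters were taken from them. Only the exact letters were searched, so other NF-kB-type spellings, in the members or elsewhere, were not counted. ATAAAAGG was in 1.76% of all promoters, it overlaps TATAAA in Cxcl3, and Ppbp has it on the other strand. The NF-kB-type letters began 71 bases before the start in Cxcl1, 97 in Cxcl2 and 73 in Cxcl3. Such a match describes the letters and does not show that a factor binds there.

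The next pair, Ppbp and Pf4, are neighbours on the plus strand of chromosome 5 and are shown because both rose. In Ppbp capitals mark TATAAA, which 13.6% of promoters hold. In Pf4 they mark an ETS-type sequence, CTTCCT, before the start, held by 35.4% of promoters. The capitals after the start of Pf4 mark a sequence of the GATA type, the letters being AGATAA, which 11.2% of promoters hold.
Ppbp (chr5:90768368-90768567): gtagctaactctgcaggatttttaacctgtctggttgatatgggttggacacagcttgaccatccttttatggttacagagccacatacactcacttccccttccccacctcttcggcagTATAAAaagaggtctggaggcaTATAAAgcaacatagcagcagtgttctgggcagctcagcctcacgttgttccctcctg
Pf4 (chr5:90772285-90772484): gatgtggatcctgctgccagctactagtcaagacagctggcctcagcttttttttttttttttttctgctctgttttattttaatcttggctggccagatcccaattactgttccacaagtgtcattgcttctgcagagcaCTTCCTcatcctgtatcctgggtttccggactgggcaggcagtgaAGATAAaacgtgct

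Cxcl12 lies on the plus strand of chromosome 6 and is shown because it had the widest difference of the 9 genes. Capitals mark CCGCCC on either strand, the GC box, which 35.7% of promoters hold. It occurs 5 times in the 300 bases of the Cxcl12 promoter, at 4 of these within the stretch shown, with 2 copies there sharing a base.
Cxcl12 (chr6:117168385-117168584): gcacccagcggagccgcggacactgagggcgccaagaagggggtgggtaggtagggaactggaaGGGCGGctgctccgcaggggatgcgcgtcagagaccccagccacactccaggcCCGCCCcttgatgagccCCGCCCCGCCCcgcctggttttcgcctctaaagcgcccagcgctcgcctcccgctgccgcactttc

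Over their 300 bases, the Cxcl12 promoter had 64.7% G and C and 20 CpG dinucleotides, the Pf4 promoter 43.3% and 3, and the Ppbp promoter 48.7% and 3. The medians of all promoters were 52.7% and 7.

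All 9 genes passed the low-count filter. Of them 5 were higher in KO (Pf4, Ppbp, Cxcl16, Cxcl14 and Cxcl1), 2 were lower (Cxcl12 and Cxcl10) and 2 did not pass the test (Cxcl2 and Cxcl3), at a threshold of 0.05 for the p of edgeR's quasi-likelihood test, adjusted by Benjamini-Hochberg over 11817 genes. Changes were frequent in this comparison: 69.2% of all genes tested passed, 34.4% higher and 34.9% lower, so 7 of 9 is a share near that background. The same shares are the background for the counts of each gene list named here. A change of at least 2-fold was less common, at 8.2% of genes (3.26% higher, 4.94% lower), and was seen for 4 of the 9 upward and 1 downward. The median log2 fold change was 0.66 over the 9 genes and 0.00 over all genes tested. On the TPM scale limma gave 2463 genes higher and 5781 lower, against 4060 and 4119 in edgeR.

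**Figure D1:**
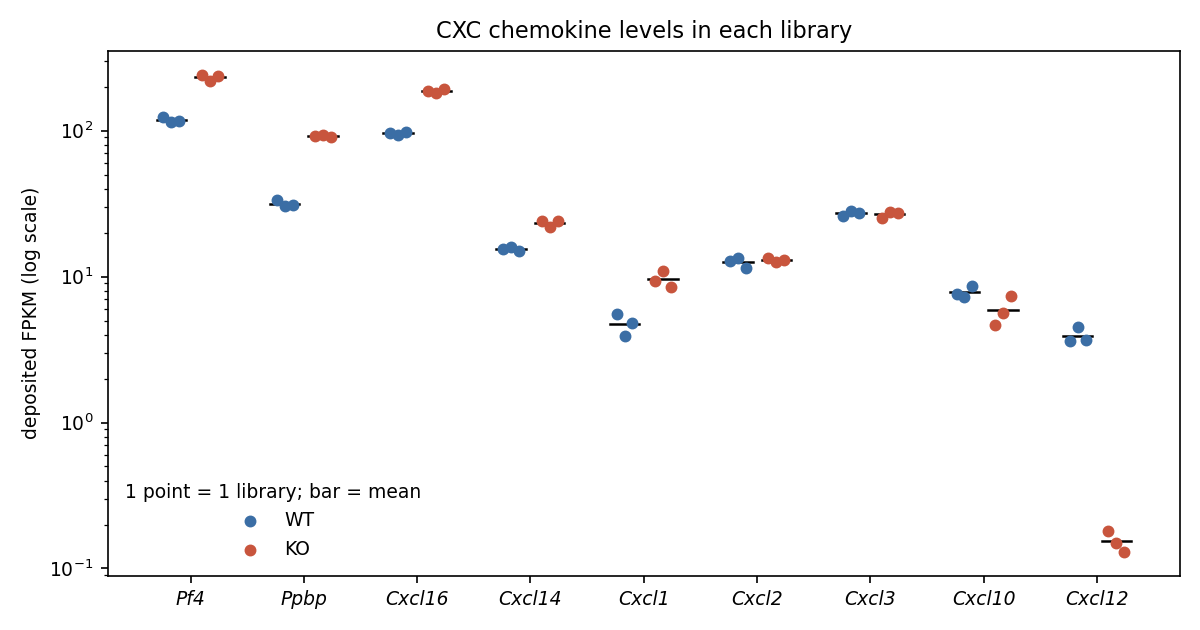
Deposited FPKM (fragments scaled by gene length and library size) of the 9 CXC chemokine genes on a log axis, with 1 point per library (3 WT, 3 KO) and a bar at each group mean. Cxcl12 falls from a WT mean of 3.94 FPKM to 0.13 to 0.18 FPKM in KO, while the KO points of Pf4, Ppbp, Cxcl16, Cxcl14 and Cxcl1 lie above all WT points.

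Both platelet-type chemokines rose. Ppbp (gene ID 57349, chromosome 5 from 90768518 to 90770063), the precursor of beta-thromboglobulin and NAP-2, had 497, 456 and 467 counts in WT and 1374, 1410 and 1366 in KO. Every KO library lay far above every WT library. The mean rose 3.04-fold, from 23.2 ± 1.06 to 70.5 ± 1.37 CPM (SD, n = 3 each; log2 1.60, SE 0.0438, edgeR adjusted p = 2.12e-27). Pf4 (gene ID 56744, chromosome 5 from 90772435 to 90773383), platelet factor 4, had 615, 599 and 606 counts in WT and 1223, 1146 and 1238 in KO. The Pf4 groups did not overlap either, and the mean rose 2.06-fold, from 29.7 ± 0.402 to 61.2 ± 2.38 CPM (SD, n = 3 each; log2 1.04, SE 0.0430, edgeR adjusted p = 7.31e-22).

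The 2 genes did not rise equally. The ratio of Pf4 to Ppbp CPM was 1.24, 1.31 and 1.30 in WT, above the KO ratios of 0.890, 0.813 and 0.906. The exact two-sided permutation test gave p = 0.10 for this ratio, which is the smallest value that 3 against 3 libraries allow, and an adjusted p of 0.133 over the 4 ratios tested among the members.

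Genes of platelets and megakaryocytes moved with these chemokines. Of 24 listed genes, all tested, 20 rose, 16 of them at least 2-fold, 3 fell and 1 did not pass, with a median log2 fold change of 1.56. Itga2b, the platelet integrin alpha-IIb chain, had 213, 216 and 222 counts in WT and 752, 698 and 692 in KO, a 3.42-fold rise. Clec1b, the podoplanin receptor of platelets, had 13, 11 and 21 counts in WT and 74, 82 and 78 in KO.
The platelet lipoxygenase gene Alox12 rose 6.46-fold and the platelet matrix gene Mmrn1 3.93-fold. Also higher were the glycoprotein genes Gp1ba, Gp1bb, Gp5, Gp6 and Gp9, which rose 2.16-fold, 3.63-fold, 4.58-fold, 3.58-fold and 3.65-fold, and Gata1, the erythroid and megakaryocyte transcription factor gene, at 2.92-fold. These glycoprotein genes, Clec1b and Gata1 were picked from the list after their values were seen.

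The 3 genes that fell were Itgb3, Thbs1 and F13a1, and F13a1 was named after its values were seen. Itgb3, the integrin partner of Itga2b, fell from 79.3 ± 1.64 to 58.3 ± 1.16 CPM, Thbs1, the thrombospondin gene, from 86.9 ± 1.63 to 76.3 ± 4.68 CPM, and F13a1, the factor XIII gene, from 321, 319 and 311 counts to 200, 189 and 214. Fermt3, an integrin activator shared by leukocytes and platelets, took most of the summed level of the list, which was 580 to 589.8 CPM in WT and 771 to 790.3 CPM in KO. No gene of the list was at 0 in all libraries. The ratio of Ppbp to Itga2b CPM, in percent, was 218 ± 13.1 in WT and 194 ± 10.1 in KO (SD, n = 3 each), and that of Pf4 to Itga2b was 279.7 ± 8.14 and 169 ± 8.98, with no overlap of the groups in either ratio. In bulk RNA, more cells or fragments of a type and more RNA per cell cannot be told apart, and the part that platelet RNA has in the rise of Pf4 and Ppbp was not tested.

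The platelet list was not alone in rising. Of 17 tested genes of monocytes and interstitial macrophages, 14 rose, 8 of them at least 2-fold. In the same list 2 fell, 1 of them at least 2-fold, and 1 did not pass, and the median log2 fold change was 0.92. Their summed level was 1355 to 1375 CPM in WT and 3514 to 3668 CPM in KO, a 2.63-fold higher mean. The platelet sum, most of it Fermt3, was 1.33-fold higher. By the median log2 fold change the order was the reverse, with 1.56 for the platelet list against 0.92. Apoe, the apolipoprotein E gene, rose 5.67-fold and C1qa, a complement gene of tissue macrophages, 5.23-fold. Most of the rise in the monocyte and interstitial macrophage sum was Apoe, which went from 274 ± 4.79 to 1553 ± 85.0 CPM (SD, n = 3 each). Of 12 general macrophage genes 10 rose and none fell, and both tested lymphocyte genes of 13 listed rose. The part that other macrophages or monocytes have in the changes of the chemokines was not tested.

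Cxcl12 fell furthest of the 9 genes. Cxcl12 (gene ID 20315, chromosome 6 from 117168535 to 117181368) had 152, 193 and 167 counts in WT and 7, 6 and 5 counts in KO. All KO libraries kept a few counts, above the floor of 3 counts used here for a gene at 0, and the groups were wide apart. The mean fell by 96.3%, from 8.36 ± 1.03 to 0.306 ± 0.0503 CPM (SD, n = 3 each; log2 -4.75, SE 0.207, 95% interval -5.17 to -4.33, edgeR adjusted p = 3.93e-21), and it was the 13th lowest log2 fold change of the 11817 genes tested. On log2(TPM + 1), a scale that understates changes of low genes, the limma difference was -2.44.

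Fibroblast and matrix genes fell with Cxcl12. Of 22 listed genes, 21 were in the table and 19 were tested. All 19 fell, each at least 2-fold, with log2 fold changes from -3.70 to -1.03 and a median of -3.06, and Cxcl12 at -4.75 lay below each of them. Ccn2, a matricellular growth factor, Bgn, which encodes the proteoglycan biglycan, and Dcn, which encodes decorin, had log2 fold changes of -3.70, -3.42 and -3.27.
Dcn had 292, 255 and 260 counts in WT and 28, 21 and 31 in KO. Pdgfra, the fibroblast receptor for platelet-derived growth factor, had 56, 47 and 52 counts in WT and 8, 8 and 13 in KO, and was picked after its values were seen. The summed level of the list was 199 to 199.7 CPM in WT and 41.1 to 44.0 CPM in KO, and Fstl1, a secreted glycoprotein gene, made up 26.0 ± 0.634 CPM (SD, n = 3) of the KO sum.

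Cxcl12 was lower in proportion as well. Its level was 3.76%, 4.75% and 4.08% of the summed fibroblast list in WT, well above the 0.864%, 0.726% and 0.579% of KO. Against Dcn alone the ratio was 64.0 ± 11.8% in WT and 23.2 ± 6.41% in KO (SD, n = 3 each), with 5 to 7 Cxcl12 counts behind each KO value.

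Markers of smooth muscle and pericytes were lower in all 6 of the tested genes of 12 listed, 4 of them at least 2-fold, with a median of -1.45. Tagln, a smooth muscle actin-binding protein gene, was 6.98-fold lower, and Acta2, smooth muscle actin, 1.47-fold lower. Their summed level was 28.5 to 30.2 CPM in WT and 12.9 to 15.1 CPM in KO. Endothelial markers were divided, with 4 of 9 tested genes higher, 3 lower and 2 not passing, and a summed level of 111 to 115 CPM in WT and 105 CPM in KO. Kdr, a VEGF receptor gene, was 1.45-fold lower and Pecam1, the CD31 gene, 1.73-fold higher, while Cdh5, which encodes VE-cadherin, had WT and KO levels of 2.25 ± 0.463 and 2.68 ± 0.250 CPM and did not pass. Of 15 epithelial markers 8 were in the table and 1 was tested, Cdh1, the E-cadherin gene, which was 2.26-fold lower, and their sum stayed below 3 CPM in every library. Of 7 mesothelial markers 2 were in the table, both below the filter. The part that stromal RNA has in the difference of Cxcl12 was not tested.

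**Figure D2:**
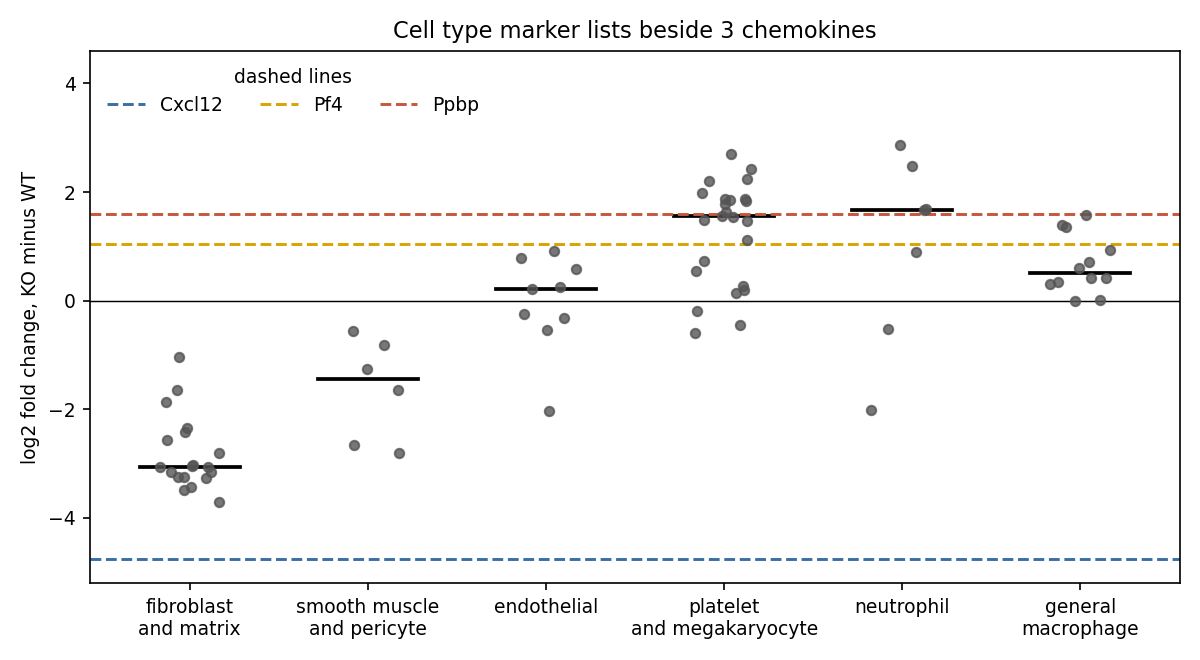
Log2 fold change (KO minus WT) of each tested gene in 6 marker lists, 1 point per gene with a bar at the list median, and dashed lines at the values of Cxcl12 (-4.75), Pf4 (1.04) and Ppbp (1.60). All 19 fibroblast points lie between -3.70 and -1.03, above the Cxcl12 line, and the platelet list has a median of 1.56.

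Among the neutrophil-attracting ELR ligands, Cxcl1 rose while Cxcl2 and Cxcl3 did not pass the test. Cxcl1 (gene ID 14825, chromosome 5 from 90891245 to 90893121), the mouse KC chemokine, had 68, 49 and 60 counts in WT and 115, 137 and 106 in KO, with no overlap. Its mean rose 2.10-fold, from 2.89 ± 0.466 to 6.08 ± 0.826 CPM (SD, n = 3 each; log2 1.07, SE 0.137, edgeR adjusted p = 1.47e-08).

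Cxcl2 (gene ID 20310, chromosome 5 from 90903899 to 90905938), known as MIP-2, had 190, 201 and 174 counts in WT and 200, 191 and 196 in KO. Its log2 fold change was 0.11, with a 95% interval from -0.06 to 0.28 (edgeR adjusted p = 0.249). Cxcl3 (gene ID 330122, chromosome 5 from 90786101 to 90788093) had 354, 386 and 379 counts in WT and 343, 383 and 379 in KO, a log2 fold change of 0.04 with an interval from -0.09 to 0.17 (edgeR adjusted p = 0.610). In both genes the groups overlapped, and the intervals leave out a change as large as that of Cxcl1. On the TPM scale their values turned to -0.03 and -0.10, again without passing (limma adjusted p = 0.664 and 0.0705).

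The ratio of Cxcl1 to Cxcl2 CPM was 0.358, 0.244 and 0.345 in WT and 0.575, 0.717 and 0.541 in KO, and that of Cxcl1 to Cxcl3 was 0.159 ± 0.0326 and 0.324 ± 0.0402 (SD, n = 3 each). Neither ratio overlapped between the groups (exact two-sided permutation p = 0.10 each, the smallest possible, and 0.133 adjusted over the 4 ratios). The ratio of Cxcl2 to Cxcl3 was 0.506 ± 0.0410 in WT and 0.533 ± 0.0444 in KO and overlapped (exact permutation p = 0.60). Cxcl2 and Cxcl3 have coding sequences of 303 bases that are identical at 89.8% of positions, and their transcripts share an unbroken run of 110 bases, so reads could be split between them and both are uncertain. Cxcl1 shares no run longer than 23 bases with either.

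The 3' untranslated regions of these genes differ in AU-rich elements, the sequences that decay factors such as Zfp36 bind. The nonamer ATTTATTTA was found 2 times in Cxcl1 (592 bases), 4 times in Cxcl2 (734 bases) and not in Cxcl3 (645 bases), in the GENCODE M21 transcripts. Of 21020 such regions of all lengths, 5.52% hold it. The densest site of each is shown with ATTTA in capitals, because the nonamer is present both in Cxcl1, which rose, and in Cxcl2, which did not pass.
Cxcl1: tcctATTTATTTAtgtATTTATTTAttc
Cxcl2: acttATTTATTTAtctatgtATTTAttt

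Of 11 decay and stability factors, 7 were higher, 3 lower and 1 did not pass, with a median log2 fold change of 0.11. Among all genes tested, 34.4% were higher and 34.9% lower. Zfp36l1, which encodes a relative of Zfp36, rose from 20.9 ± 0.728 to 48.1 ± 1.76 CPM, and the kinase gene Mapkapk2, which acts on Zfp36, rose 1.26-fold. Rc3h1 and Rc3h2, the roquin genes, were 1.42-fold and 1.45-fold lower. Zfp36 itself rose 1.22-fold, and Zc3h12a, the regnase-1 gene, 1.14-fold.

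Ppbp, Pf4, Cxcl3, Cxcl1 and Cxcl2 lie in 1 cluster of 146.6 kb on chromosome 5, together with Cxcl5 and Cxcl15. Cxcl5, another ELR ligand, had 65, 58 and 60 counts in WT and 112, 97 and 92 in KO and rose 1.71-fold (log2 0.77, SE 0.133, edgeR adjusted p = 3.87e-06). Genes that rose and genes that did not pass were interleaved along the cluster. Counted from the start of Cxcl5, Ppbp lies at 9.22 kb, Pf4 at 13.1 kb, Cxcl3 at 26.8 kb, Cxcl1 at 131.9 kb and Cxcl2 at 144.6 kb. Cxcl15 is not in the table and was not analysed here.

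**Figure D3:**
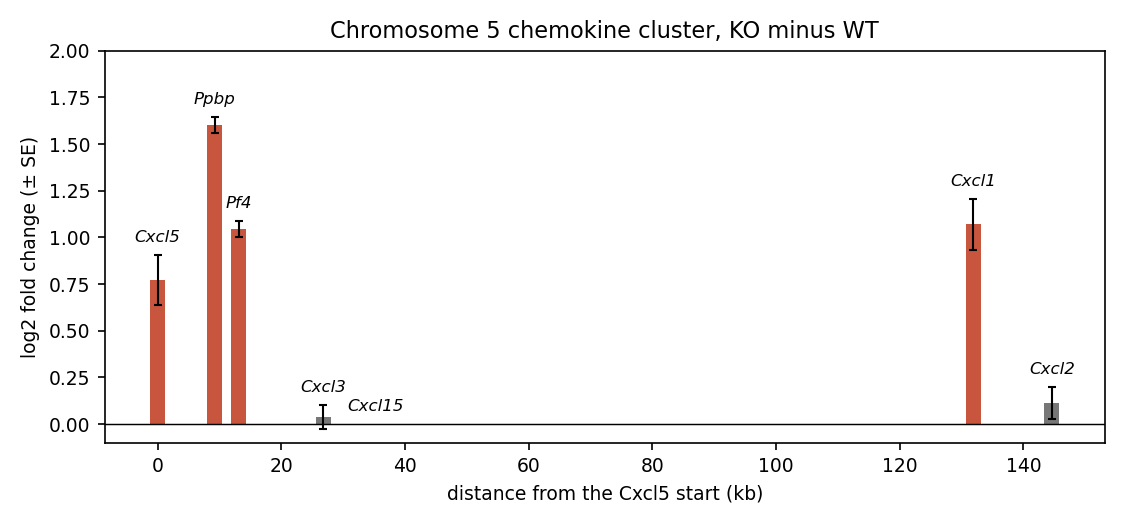
Log2 fold change (KO minus WT, with SE) of the chromosome 5 cluster genes against the distance of each gene start from that of Cxcl5 in kb, red where higher in KO and grey where the test was not passed. Cxcl5, Ppbp, Pf4 and Cxcl1 stand at 0.77 to 1.60 and Cxcl3 and Cxcl2 at 0.04 and 0.11, and Cxcl15, named without a bar, was not analysed.

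Genes of the NF-kB pathway, which drives Cxcl1, Cxcl2 and Cxcl3 in macrophages, went both ways. Of 26 listed genes 16 rose, 9 fell and 1 did not pass, with a median log2 fold change of 0.22. As shares, 61.5% rose and 34.6% fell, beside 34.4% and 34.9% of all genes tested. The adaptor gene Myd88 rose 1.65-fold and Tnfaip2 1.36-fold, while Tnfaip3, which encodes the A20 brake of the pathway, was 2.03-fold lower and the growth factor gene Csf1 6.09-fold lower. Among the cytokine genes, named after their values were seen, Il1b went from 93, 93 and 96 counts in WT to 262, 248 and 271 in KO, whereas Tnf went from 1700, 1815 and 1706 to 1016, 1000 and 1026. Neutrophil genes, whose cells these ligands attract, rose in 5 of the 7 tested of 14 listed and fell in 2. The lipocalin gene Lcn2 was 7.30-fold, Csf3r, the G-CSF receptor gene, 3.21-fold and S100a8 1.87-fold higher. The summed level of the list was 859 to 877 CPM in WT and 736 to 759 CPM in KO. Most of that sum came from Mmp8, which fell from 800 ± 10.9 to 558 ± 10.7 CPM (SD, n = 3 each). The granule markers Elane, Camp, Ltf and Retnlg did not pass the filter. The part that neutrophil RNA has in the difference of Cxcl1 was not tested.

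The interferon-induced Cxcl10 was somewhat lower in KO, near the limit of the test. Cxcl10 (gene ID 15945, chromosome 5 from 92346638 to 92348889, minus strand) had 115, 111 and 134 counts in WT and 71, 87 and 114 in KO. KO library 3 lay within the WT range, so the groups overlapped. Its mean of 5.88 ± 0.577 CPM in WT compared with 4.62 ± 1.11 CPM in KO (SD, n = 3 each; log2 -0.35, SE 0.132, edgeR adjusted p = 0.0192). The call was lost without WT replicate 3, KO replicate 1 or KO replicate 2 (adjusted p = 0.123, 0.205 and 0.0676) and with DESeq2 (adjusted p = 0.115), all from fits across all genes. Without KO replicate 1 the value was -0.195, and without KO replicate 3 it was -0.54. The gene lies within Art3, which had at most 1 count in any library.

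Other interferon-response genes did not share that direction as a group. Of 28 tested genes of 30 listed, 17 rose, 6 fell and 5 did not pass, with a median of 0.21. The shares were 60.7% higher and 21.4% lower, beside 34.4% and 34.9% of all genes tested. Ifi44 rose 10.7-fold and Irf1, a transcription factor gene upstream of Cxcl10, rose 2.09-fold from 23.3 ± 0.425 to 48.7 ± 0.488 CPM. Cxcl9, another Cxcr3 ligand, had 12, 13 and 8 counts in WT and 8, 4 and 8 in KO and was below the filter. Cxcl13 had no counts in WT and at most 1 in KO, and Cxcl11 and Cxcl17 were not analysed here.

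Cxcl16, the member with the most counts, rose, and so did the gene that overlaps it. Cxcl16 (gene ID 66102, chromosome 11 from 70454389 to 70459984, minus strand), a transmembrane chemokine and scavenger receptor for oxidised lipoprotein, had 2209, 2164 and 2286 counts in WT and 4310, 4216 and 4507 in KO. Its groups did not overlap, and the mean rose 2.04-fold, from 109 ± 2.59 to 221 ± 7.44 CPM (SD, n = 3 each; log2 1.02, SE 0.0282, edgeR adjusted p = 2.75e-27). The plus-strand gene Zmynd15 overlaps it by 552 bases and had 115, 85 and 108 counts in WT and 232, 252 and 253 in KO. The sources used here do not say whether counting used strand, so reads of the overlap cannot be assigned with certainty.

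Cxcl14 (gene ID 57266, chromosome 13 from 56288643 to 56296811, minus strand) had 456, 474 and 445 counts in WT and 709, 651 and 725 in KO. The groups did not overlap, and the mean rose 1.58-fold, from 22.5 ± 0.798 to 35.4 ± 1.91 CPM (SD, n = 3 each; log2 0.66, SE 0.0524, edgeR adjusted p = 1.55e-13). In all, 6 of the 9 members had groups that did not overlap, against 71.2% of all genes tested.

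**Figure D4:**
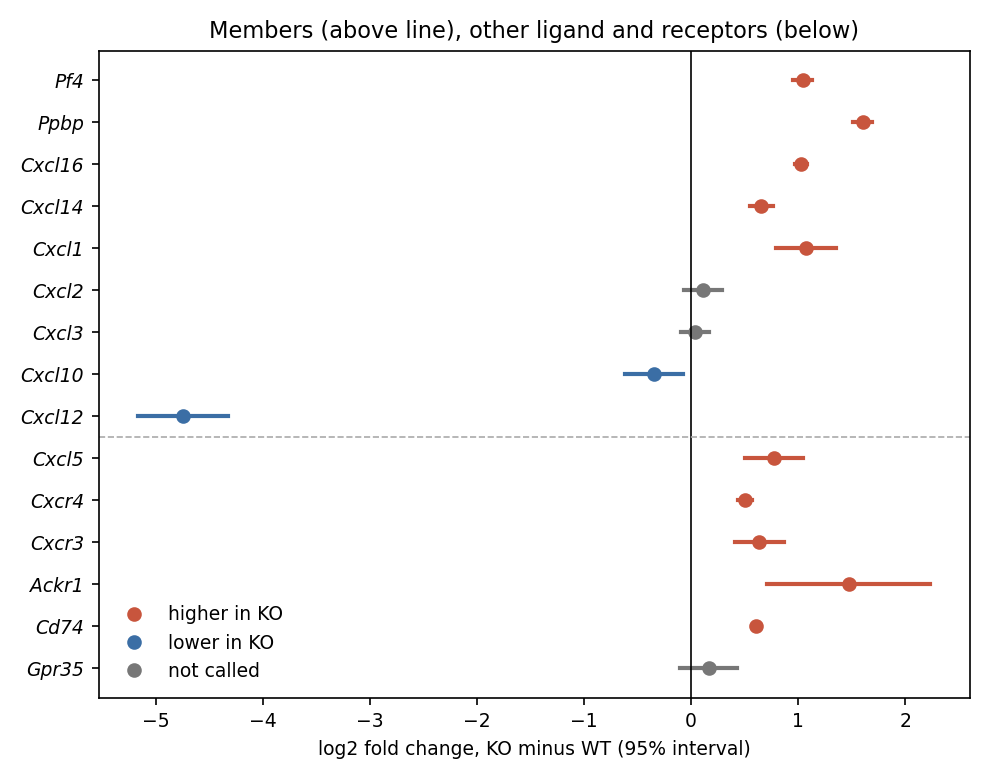
Log2 fold change (KO minus WT) with 95% interval for the 9 members, above the dashed line, and for Cxcl5 and 5 receptor-side genes below it, coloured by the edgeR call. Cxcl12 at -4.75 stands apart on the left, Cxcl2, Cxcl3 and Gpr35 span 0, and Ppbp has the highest value of the members at 1.60.

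Compared per length, the order of the members was nearly the same in both genotypes. In WT, Pf4 was highest at 119 ± 4.51 FPKM, then came Cxcl16 at 95.6 ± 2.32, Ppbp at 31.6 ± 1.73, Cxcl3 at 27.2 ± 0.956, Cxcl14 at 15.4 ± 0.488, Cxcl2 at 12.6 ± 0.957, Cxcl10 at 7.81 ± 0.752, Cxcl1 at 4.75 ± 0.815 and Cxcl12 at 3.94 ± 0.519 FPKM (SD, n = 3 each). Only Cxcl1 and Cxcl12 overlapped as neighbours in that order. In KO, Pf4 stood at 233 ± 11.7, Cxcl16 at 187 ± 5.97 and Ppbp at 91.9 ± 1.59 FPKM (SD, n = 3 each). Cxcl1 at 9.56 ± 1.27 FPKM had moved above Cxcl10 at 5.88 ± 1.38, Cxcl12 was last at 0.153 ± 0.0252, and no neighbours overlapped. Pf4, Ppbp and Cxcl16 together made up 76.6% to 78.1% of the summed TPM of the 9 genes in the WT libraries and 86.2% to 87.2% in the KO libraries. The summed TPM was 440 to 456 in WT and 766 to 799 in KO.

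On the receptor side, 4 of the 5 tested genes rose and 1 did not pass, where 34.4% of all genes tested rose and 34.9% fell. Cxcr4, the Cxcl12 receptor, had 1431, 1472 and 1415 counts in WT and 1961, 1987 and 1947 in KO and rose 1.42-fold (log2 0.51, SE 0.0322, edgeR adjusted p = 3.06e-16), while its ligand fell. Cxcr3, the receptor for Cxcl10 and, in mouse, a binding partner of Pf4, rose 1.56-fold from 91, 81 and 92 counts to 133, 122 and 140. Cd74, the invariant chain, which also takes part in MIF signalling with Cxcr4, rose 1.52-fold, and Ackr1, a chemokine scavenger of red cells and venules, had 7, 7 and 3 counts in WT and 18, 16 and 12 in KO. Gpr35, a proposed chemokine receptor, was at 3.82 ± 0.553 and 4.28 ± 0.0371 CPM.
The neutrophil receptors Cxcr1 and Cxcr2 were below the filter, with at most 6 and 11 counts in any library, as were Cxcr5 with at most 9 and Cxcr6, the Cxcl16 receptor, with at most 7. Cxcr2 had 4, 5 and 2 counts in WT and 11, 9 and 9 in KO, and Cxcr1 had 6, 4 and 3 against 6, 1 and 5. At such low counts neither was tested. Ackr3, the second Cxcl12 receptor, had 1 count in 1 WT library and none elsewhere.

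Proteases and anchors that process or hold chemokines also changed in both directions, with 11 of 21 tested genes higher, 9 lower and 1 not passing. These are 52.4% higher and 42.9% lower, beside 34.4% and 34.9% of all genes tested, so changes in both directions are not particular to this list. The elastase gene Mmp12 of macrophages was 2.83-fold lower and the cathepsin gene Ctsk 1.90-fold lower. Mmp14, a membrane-type metalloprotease gene, rose 1.86-fold and Sdc3, a heparan sulfate proteoglycan gene, 1.82-fold. For the enzymes best known for these ligands, named after their values were seen, Dpp4, which inactivates Cxcl12 and Cxcl10, had 28, 20 and 17 counts in WT and 48, 37 and 44 in KO. Adam17 and Adam10, the sheddases of Cxcl16, went in opposite directions, 1.32-fold higher and 1.10-fold lower.

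Among the genes nearest to Cxcl12 by the distance between their log2 CPM values in the 6 libraries, each gene centred on its own mean, were Acaa1b (distance 0.675), Ccn2 (1.04), Padi4 (1.07) and Gm45988 (1.10). Nearest to Cxcl16 were Arhgap4 (0.0434), Engase (0.0654), AB124611 (0.0655), Pf4 (0.0737) and Itgal (0.0865). The log2 fold changes of the first 3 genes named for Cxcl12 lay between -5.69 and -3.70, and those of the 5 for Cxcl16 between 0.99 and 1.05. In the authors' deposited table of 6784 genes for a heat map, 6 of the 9 members are listed, and Cxcl2, Cxcl3 and Cxcl10 are not.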

How the data were processed

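The members and gene lists were chosen with earlier results of these data known. Per the submitters' processing notes, HISAT, Bowtie2 and build GRCm38.p6 were used, with no role given; the sources used here name neither counter nor annotation. The authors deposited estimated counts per gene, not whole for 8.66% to 9.19% of genes, which were rounded. FPKM and TPM are the authors' values per the file headers. The deposited scaled-count signal and group means were not used, and the log2(FPKM + 1) table of the authors served only to see which genes it lists.

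KO and WT were compared with edgeR 4.0.16 (quasi-likelihood, TMM, filterByExpr, group only; R 4.3.3), adjusting by Benjamini-Hochberg over 11817 genes. CPM uses TMM-adjusted library sizes, so 3 counts are 0.146 to 0.153 CPM. The SE is the log2 fold change divided by the root of the test's F value. Intervals and floors cover counting and between-library error only. Libraries of a group differed beyond counting noise (chi-square per gene 1.38 to 1.61), but only slightly. The common biological coefficient of variation estimated by edgeR was 1.66%, and this spread may be technical. The test was checked on counts simulated with a common spread for all genes and few changed genes. Such counts cannot show how it does where most genes change or where the spread differs between genes. Alternatives were other scalings and filters, each library left out, the replicate number as a block, DESeq2 1.42.0, limma 3.58.1 on counts (voom), FPKM and TPM, an assumed spread, a fit without X and Y genes, and a threshold of 0.01. Named genes are the members, all listed ligands and receptors, up to 4 genes per other list by smallest p, the 3 most abundant cell type markers and the 5 nearest patterns; fewer are printed, and some are not reported here. Outside this rule, and named after their values were seen, are Siglecf, Cdh5, Pdgfra, Zfp36, Zc3h12a, Il1b, Tnf, Dpp4, Adam10, Adam17, F13a1, the platelet glycoprotein genes, Clec1b, Gata1 and the neutrophil granule markers. Motifs were chosen after these sequences and the results were available. Python 3.11.15, pandas 2.3.3, SciPy 1.17.1 and matplotlib 3.10.9 did the rest.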

Additional observations from a re-analysis of the deposited data

How the results depend on the processing

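The directions and calls of Cxcl12, Cxcl1, Cxcl14, Cxcl16, Pf4 and Ppbp held in all 21 alternatives run, with log2 fold changes of -4.86 to -2.10 (Cxcl12), 0.84 to 1.19, 0.50 to 0.70, 0.88 to 1.05, 0.89 to 1.08 and 1.44 to 1.64, and Cxcl2 and Cxcl3 passed in none. Cxcl10 lost its call under an assumed biological variation of 0.1 between replicates (log2 -0.35, adjusted p = 0.0841), with DESeq2 (-0.35, adjusted p = 0.115) and with limma on unfiltered log2(FPKM + 1) (-0.37, adjusted p = 0.0717), and leaving out 1 library gave -0.54 to -0.195. The assumed spread left 4406 genes called, 2180 higher and 2226 lower, against 8179, and with it Thbs1, Adam10, Zfp36 and Zc3h12a lost their calls. Genes changed at least 2-fold numbered 455 with the stricter filter of 5 CPM, 335 on log2(FPKM + 1), 340 without its filter and 406 on log2(TPM + 1), against 969. That stricter filter, which tests fewer genes, also left 12 fibroblast genes lower and 8 platelet genes higher. On log2(TPM + 1) and log2(TPM + 0.1), 2463 and 2466 genes were higher, where the median of all genes stood at -0.12 and -0.14, and Fabp5, a lipid-binding protein gene of the marker lists, turned from 0.0786 to -0.0655 and -0.0655. The cause of the other shifts was not tested.

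With the replicate number as a block, 8321 genes passed and no call of a member changed. Deviations of same-numbered WT and KO libraries correlated at 0.102, 0.0630 and 0.0829 over 9579 genes, each library best with its own number, which is a hint from the data and not the design.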
